A study of Mus musculus with 8 samples.

Results

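PD-1+ CD4+ T cells sorted from the livers of 10-day-old mice were compared with the same population sorted at 5 days of age. The comparison holds 4 of the 8 libraries of the series: replicates 2 and 3 at 5 days and replicates 1 and 2 at 10 days, chosen by their age and PD-1 labels. All animals were C57/Bl6 mice deficient in Aire that also carried a GFP reporter of Foxp3, so no library came from an Aire-sufficient mouse and the values describe age within the knockout alone. The sorted cells were live and CD45+, bore the alpha-beta T cell receptor and CD4, lacked the Foxp3 reporter and were positive for PD-1 on their surface. Each library held 1000 cells that had been sorted in 2 rounds. The 4 PD-1- libraries of the same ages entered the model to estimate the spread between libraries and are compared with nothing here.

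PD-1, encoded by Pdcd1, is an inhibitory receptor that T cells acquire when their antigen receptor is engaged and keep when the engagement continues. Under lasting stimulation CD4+ T cells can add further inhibitory receptors such as Lag3 and Tigit, the transcription factor Tox and surface molecules of anergy such as the folate receptor Izumo1r and the ectonucleotidase Nt5e. Aire drives the display of tissue antigens in the thymus, and without it self-reactive CD4+ T cells reach organs such as the liver. T cells that are growing and dividing depend on glycolysis, on Myc and on ribosome production, whereas resting T cells use these less.

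The 4 libraries held 2215852 and 2365447 counts at 5 days and 2843311 and 2791009 at 10 days. Their markers matched the sort: Cd4 had 1330 to 4279 counts per library, Cd3e 437 to 1256 and Pdcd1 564 to 1953, whereas Foxp3 had at most 2 and Cd8a at most 40. Aire had at most 2 counts, which does not check its deletion, since T cells make little of it in any case. The 5-day replicate 3 had 1 count of Xist and 608 counts of Y-linked genes, whereas Xist had 698 to 1678 counts in the remaining 3, with at most 2 Y-linked counts. The labels give no sex and do not say that replicates came from separate animals, so p-values measure the spread between these libraries. Pairs of one age correlated across genes with Spearman's rho of 0.971 (5 days) and 0.967 (10 days), against 0.917 to 0.937 across ages. The chi-square per degree of freedom of the counts was 4 between the 5-day libraries and 8.61 between the 10-day libraries. Among genes averaging at least 50 CPM, which are counts scaled by library size,, 92 of 4059 differed at least 2-fold between the 10-day libraries and 35 of 4036 between the 5-day libraries. Dusp2, a phosphatase of MAP kinases chosen here after its values were seen, had 42.4 CPM in 10-day replicate 1 and 387 in replicate 2. CPM values throughout use library sizes scaled by edgeR's trimmed mean of M-values (TMM).

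The table lists 52997 gene symbols, of which 11490 passed the filter on low counts. At a Benjamini-Hochberg adjusted p below 0.05 in edgeR's quasi-likelihood test, which is what called means from here on, 849 genes (7.39%) were higher and 802 (6.98%) lower at 10 days, together 14.4%. All 1651 called genes had libraries that did not overlap between ages, as had 31.3% (higher) and 27.2% (lower) of all tested genes. Of the higher genes 543 differed at least 2-fold and 167 at least 4-fold, against 332 and 69 of the lower genes. The median log2 fold change was 0.05 over all tested genes, and the biological coefficient of variation was 19.8%. Leaving out 1 library at a time called 271 higher and 279 lower genes without 5-day replicate 2, 407 and 479 without 5-day replicate 3, 401 and 375 without 10-day replicate 1, and 587 and 539 without 10-day replicate 2. Both 5-day libraries numbered 3 carried Y-linked counts, 608 in the PD-1+ one and 691 in the PD-1- one. Without them the median log2 fold change of the tested genes was 0.06. With library totals in place of TMM, 75.6% of the called genes were higher, against 51.4%, and the median log2 fold change of the tested genes moved to 0.24. No called gene changed direction under any of the 14 alternatives run. These alternatives refit the same counts, and the lack of overlap between ages made a reversal unlikely in advance. In such bulk libraries, fewer cells of a type and less RNA per cell cannot be told apart.

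**Figure D1:**
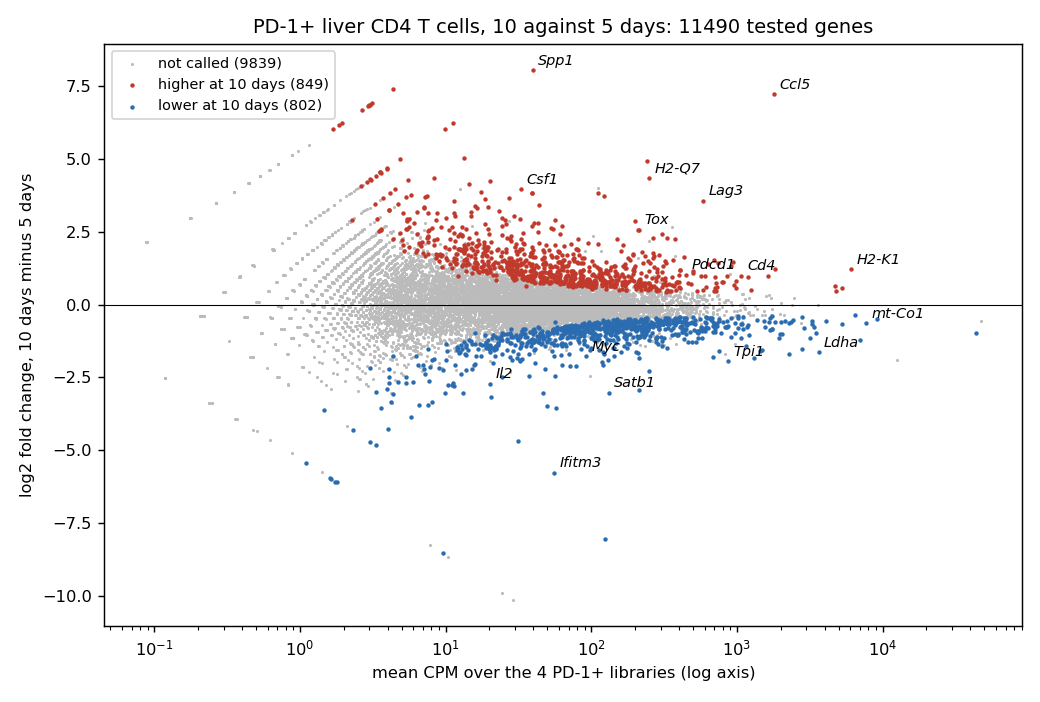
Log2 fold change of 10 against 5 days (y axis) by mean CPM over the 4 libraries (x axis, logarithmic) for each tested gene, with the 849 higher and 802 lower genes coloured and some named genes labelled. Called genes lie on both sides of 0 over the whole range of expression.

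**Figure D2:**
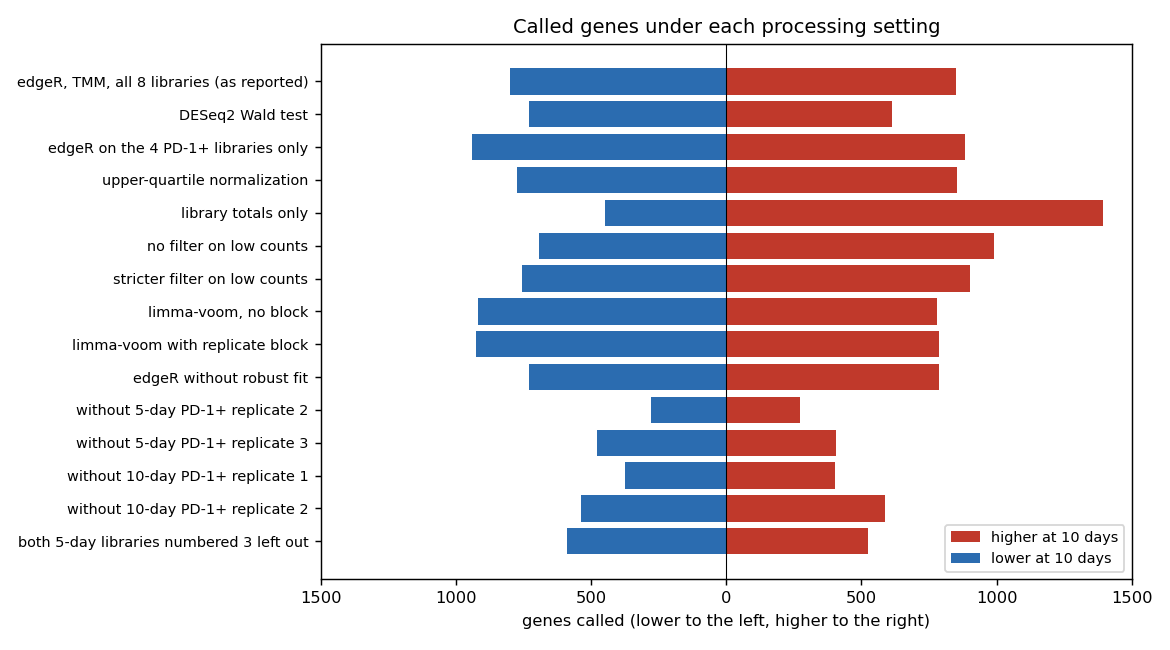
Numbers of genes called higher and lower at 10 days (x axis) in the main analysis and under each of the 14 alternatives (y axis). The counts fall most when a library is left out, and the split leans to higher genes when library totals replace TMM, with 1393 higher and 449 lower.

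The genes that rose most at 10 days encode secreted factors, an inhibitory receptor, integrin and chemokine receptor chains, and class I molecules. Spp1, the secreted matrix protein osteopontin, had 0.515 and 0 CPM at 5 days, the 0 in replicate 3, and 73.4 and 84.3 CPM at 10 days (log2 fold change 8.04 ± 0.63 (SE), edgeR adjusted p = 2.37e-06). In counts pooled over the libraries of an age, over their totals, its ratio was 363, with a counting interval of 64.8 to 14400. Both 10-day libraries stood far above both 5-day libraries. Pvrig, an inhibitory receptor for a nectin, had 0.515 and 0 CPM at 5 days and 33.1 and 11.6 CPM at 10 days, with a pooled ratio of 102 (interval 18.1 to 4080) and an edgeR adjusted p of 0.000548. The integrin chain gene Itgad had 0 and 0.477 CPM at 5 days and 23.1 and 15.8 CPM at 10 days, with a ratio of 89.4 (interval 15.7 to 3560) and an adjusted p of 0.000462. Each of the 3 genes had 1 count in all at 5 days. Csf1, the growth factor of macrophages, rose 15.5-fold, from 3.09 and 4.77 CPM to 91.2 and 33.0 CPM (log2 fold change 3.96 ± 0.56 (SE), edgeR adjusted p = 0.000409), and was higher in 10-day replicate 1. Serpina3g, an intracellular inhibitor of cathepsins, rose 14.3-fold (15.4 and 13.4 against 269 and 145 CPM, adjusted p = 4.11e-05). The calcium channel gene Cacna1d rose 14.1-fold (2.57 and 7.64 against 74.1 and 72.7 CPM), and the syntenin relative Sdcbp2 13.4-fold (10.3 and 23.4 against 296 and 159.9 CPM). Unc13b and Gpld1 rose 17.6-fold and 11.9-fold, to 29.2 and 25.3 CPM and 21.7 and 20.7 CPM.

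Ccl5, a chemokine made by effector and memory T cells, had 23.7 and 23.9 CPM at 5 days and 5182 and 1949 CPM at 10 days (log2 fold change 7.23 ± 1.30 (SE), edgeR adjusted p = 0.0376). The libraries of the 2 ages did not overlap, but 10-day replicate 1 was far above replicate 2, and the call was lost without 5-day replicate 2 (adjusted p = 0.239), 5-day replicate 3 (adjusted p = 0.2), 10-day replicate 1 (adjusted p = 0.119) or 10-day replicate 2 (adjusted p = 0.072). The fractalkine receptor gene Cx3cr1 had 0 and 1.43 CPM at 5 days and 38.5 and 13.3 CPM at 10 days and a pooled ratio of 39.6 (interval 13.3 to 194, adjusted p = 0.00447), and was not called without 10-day replicate 1 (adjusted p = 0.0822) or by DESeq2 (adjusted p = 0.539). Osgin1 (10.3 and 0 against 82.6 and 62.9 CPM, adjusted p = 0.0435) was not called without 10-day replicate 1 (adjusted p = 0.163) or 10-day replicate 2 (adjusted p = 0.117), by DESeq2 (0.0815) or in a fit of the 4 PD-1+ libraries alone (0.0832). Macrophages also make Spp1, Itgad and Cx3cr1. The summed level of 13 macrophage and Kupffer cell markers was 55.1 and 55.9 CPM at 5 days and 75.5 and 66.4 CPM at 10 days, and Lyz2, the macrophage lysozyme, had 2 to 4 counts in each library. Of these markers only Cd68, a lysosomal protein, was called (8.23 and 6.68 against 30.6 and 27.4 CPM, log2 fold change 1.96 ± 0.35 (SE), edgeR adjusted p = 0.00146). The part of such cells in the 3 genes was not tested.

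The largest falls included the interferon-induced transmembrane genes Ifitm1, Ifitm2 and Ifitm3, whose proteins block viral entry. Ifitm1 had 352 and 148 CPM at 5 days and 1.78 and 0 CPM at 10 days (log2 fold change -8.06 ± 0.92 (SE), edgeR adjusted p = 0.00309), and Ifitm3 had 148 and 69.7 CPM at 5 days and 1.78 and 2.11 CPM at 10 days (log2 fold change -5.77 ± 0.54 (SE), edgeR adjusted p = 1.59e-05). Ifitm2 fell from 76.7 and 44.9 CPM to 3.92 and 0.703 CPM (adjusted p = 0.000585). All 3 were higher in 5-day replicate 2 than in replicate 3, and no 10-day library came near either. Ifitm10, the other tested gene of that name and given here after its values were seen, rose 6.73-fold (6.69 and 6.68 against 50.6 and 40.1 CPM, edgeR adjusted p = 0.000381). The gut homing receptor gene Gpr15 had 22.6 and 15.8 CPM at 5 days and no count in either 10-day library, which makes it at least 31.6-fold lower against a floor of 3 counts over the 10-day group. EdgeR called it (adjusted p = 0.00166), DESeq2 did not (adjusted p = 0.0594). Furin, a protease that cleaves proproteins, fell 7.66-fold (443 and 308 against 48.4 and 49.5 CPM, adjusted p = 6.48e-06), and Ggt1, a glutathione-degrading enzyme, fell 11.6-fold (106 and 105 against 8.90 and 9.14 CPM). The tyrosine kinase gene Fes fell 8.23-fold (89.0 and 77.8 against 11.4 and 8.79 CPM). The receptor genes Gpr146, Gpr18 and Treml2 fell 8.93-fold, 5.65-fold and 6.43-fold. Lower calls that rested on single libraries were Adgrg5, lost without 5-day replicate 2 (adjusted p = 0.157) or 10-day replicate 1 (adjusted p = 0.0704), Akr1c18, lost without 5-day replicate 2 (adjusted p = 0.0884) or 10-day replicate 2 (adjusted p = 0.0677), and Igfbp4, lost without 10-day replicate 1 (adjusted p = 0.059).

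**Figure D3:**
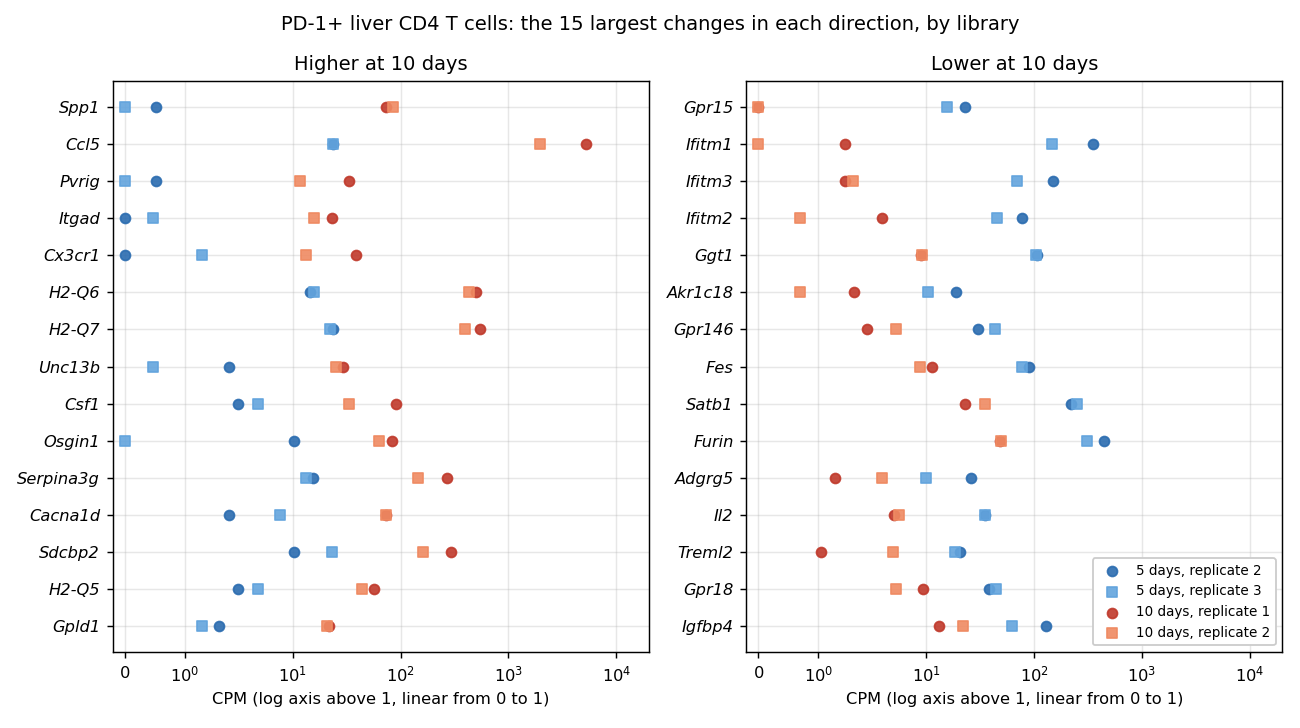
CPM of the 15 genes with the largest rise and the 15 with the largest fall in each of the 4 libraries, on an axis linear near 0 and logarithmic above. The 5-day and 10-day points do not overlap for any gene, which the choice of these genes required. The 10-day points of Ccl5 lie at 5182 and 1949 CPM.

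MHC class I presents cytosolic peptides to CD8+ T cells and is carried by T cells themselves, and 11 of 20 tested genes of class I and antigen processing rose. The upstream sequences of 3 of them are printed because the H2-Q genes had the largest rises of the list and H2-K1 is the classical class I gene of the same chromosome 17 region. They are RefSeq sequences of build GRCm38.p6, the 250 bases before an annotated start, on the gene's strand. Where a gene has several starts, the stretch with most matches is printed, here and below. The stretch of H2-K1 overlaps the beginning, on the gene's strand, of the gene span given below. H2-Q6 is chr17:35424600-35424849 (+), H2-Q7 chr17:35438905-35439154 (+) and H2-K1 chr17:34000334-34000583 (-). Capitals mark CCAAT, or ATTGG where it lies on the other strand.
H2-Q6: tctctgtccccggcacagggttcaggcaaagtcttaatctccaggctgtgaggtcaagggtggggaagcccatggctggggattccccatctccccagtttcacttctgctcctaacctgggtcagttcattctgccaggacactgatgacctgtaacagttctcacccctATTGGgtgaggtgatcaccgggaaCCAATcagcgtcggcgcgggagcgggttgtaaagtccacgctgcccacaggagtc
H2-Q7: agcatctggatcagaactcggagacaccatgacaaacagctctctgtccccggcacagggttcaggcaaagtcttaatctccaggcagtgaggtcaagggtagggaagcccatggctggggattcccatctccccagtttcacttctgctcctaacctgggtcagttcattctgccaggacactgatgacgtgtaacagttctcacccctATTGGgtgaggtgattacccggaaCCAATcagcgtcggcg
H2-K1: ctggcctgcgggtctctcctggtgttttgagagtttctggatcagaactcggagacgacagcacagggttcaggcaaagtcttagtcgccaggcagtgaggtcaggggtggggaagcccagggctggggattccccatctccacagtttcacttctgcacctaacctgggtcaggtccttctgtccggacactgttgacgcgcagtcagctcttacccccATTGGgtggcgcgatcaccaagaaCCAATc
Each held 2 matches, beginning 79 and 55 bases before the start in H2-Q6, 40 and 16 in H2-Q7 and 30 and 6 in H2-K1. The stretches of H2-Q6 and H2-Q7 share a run of 66 identical bases, and each shares at most 24 with H2-K1. On either strand of the 300-base windows (250 before to 50 after the start), CCAAT was present in 12 of 18 promoters of this list (66.7%) and in 38.2% of the 10634 promoters of all tested genes. Among the promoters of all genes called higher, CCAAT was present in 35.7%. A match is a string of letters, not a shown binding site.

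Of these 20 class I and antigen processing genes none fell and 9 were not called, with a median log2 fold change of 0.48 against 0.05 over all genes. H2-Q7, a non-classical class I gene, had 23.7 and 22.4 CPM at 5 days and 548 and 399 CPM at 10 days (log2 fold change 4.36 ± 0.22 (SE), edgeR adjusted p = 4.69e-09). H2-Q6 (chr17:35424850-35430055), its neighbour, had 14.4 and 15.8 CPM at 5 days and 502 and 429 CPM at 10 days (log2 fold change 4.94 ± 0.28 (SE), edgeR adjusted p = 6.29e-08). Both 10-day libraries were at least 15 times above both 5-day libraries for each gene. H2-Q5 rose 12.7-fold, from 3.09 and 4.77 CPM to 57.3 and 43.9 CPM (adjusted p = 0.000345). H2-Q genes are near-identical copies, so how reads were divided between them is uncertain. The classical gene H2-K1 (chr17:33996017-34000347) had 4012 and 3270 CPM at 5 days and 9063 and 7920 CPM at 10 days, a rise of 2.33-fold (log2 fold change 1.22 ± 0.13 (SE), edgeR adjusted p = 1.45e-05). H2-T22 rose 2.49-fold (99.3 and 88.8 against 251 and 216 CPM). H2-T23, the Qa-1 molecule that presents leader peptides, rose 1.98-fold (429 and 338 against 880.1 and 636 CPM, adjusted p = 0.00556), a call lost without 5-day replicate 3 (adjusted p = 0.067). Without 5-day replicate 2, 5-day replicate 3, 10-day replicate 1 or 10-day replicate 2, in that order, 6, 4, 5 and 9 members were called higher, and the counts of lists below are given in the same order.

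Interferon response genes moved less evenly. Of 38 tested, 6 rose and 1 fell, with a median of 0.30, and leave-one-out fits called 4, 2, 2 and 5 higher. The DNA-binding interferon-inducible gene Ifi209 had 46.3 and 40.1 CPM at 5 days and 138 and 122 CPM at 10 days (log2 fold change 1.59 ± 0.21 (SE), edgeR adjusted p = 0.000117), and the RNA sensor gene Ifih1 34.5 and 31.0 CPM at 5 days and 115 and 76.3 CPM at 10 days (log2 fold change 1.55 ± 0.30 (SE), edgeR adjusted p = 0.00255). Both libraries of each age lay on their own side, as in every called gene. Trim30a (76.7 and 54.0 against 130.4 and 111 CPM) and Ifi203 (66.9 and 66.8 against 135 and 104 CPM) were called with adjusted p of 0.0133 and 0.0409. The antiviral enzyme gene Oas3 fell 3.68-fold (44.8 and 60.6 against 10.3 and 18.3 CPM, adjusted p = 0.031). Trim30a lost its call without 5-day replicate 3 (adjusted p = 0.169) or 10-day replicate 1 (adjusted p = 0.0913), Ifi203 without 5-day replicate 2 (adjusted p = 0.229), 5-day replicate 3 (adjusted p = 0.193) or 10-day replicate 1 (adjusted p = 0.222), and Oas3 without 5-day replicate 2 (adjusted p = 0.0984), 5-day replicate 3 (adjusted p = 0.16) or 10-day replicate 1 (adjusted p = 0.175). Of 16 interferon-induced GTPases, which attack the membranes around intracellular microbes, 2 rose and 1 fell (median -0.002). The shares over all tested genes were 7.39% and 6.98%. Gbp9 and Gbp8 rose 2.69-fold and 2.79-fold (44.8 and 46.8 against 129.6 and 117 CPM for Gbp9). Their annotated spans overlap, so they may share counts. Tgtp1 fell 4.20-fold (25.2 and 12.4 against 5.34 and 3.51 CPM, edgeR adjusted p = 0.0439), a call lost without 5-day replicate 2, 10-day replicate 1 or 10-day replicate 2.

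Some inhibitory receptors and their regulators rose at 10 days. Of 13 tested co-inhibitory receptors, 7 rose, none fell and 6 were not called, beside 7.39% and 6.98% of all tested genes. Their median was 1.03 against 0.05 over all genes, and 11 had a positive log2 fold change. Lair1, not called and given here after its values were seen, was lower in both 10-day libraries (42.2 and 40.6 against 26.7 and 18.3 CPM, edgeR adjusted p = 0.0699). Both limma-voom fits called 1 member of the list lower. Lag3, a receptor for class II that restrains CD4+ T cells, had 101 and 81.6 CPM at 5 days and 1440 and 730.2 CPM at 10 days, an 11.9-fold rise (log2 fold change 3.57 ± 0.30 (SE), edgeR adjusted p = 0.00012). Tigit, which competes for CD155, had 111 and 113 CPM at 5 days and 686 and 409.7 CPM at 10 days (log2 fold change 2.29 ± 0.23 (SE), edgeR adjusted p = 2.48e-05). In both genes 10-day replicate 1 was the highest library, and the ages did not overlap, as in every called gene. Pdcd1, the gene whose protein defined the sort at both ages, had 316 and 269 CPM at 5 days and 696 and 499 CPM at 10 days (log2 fold change 1.03 ± 0.18 (SE), edgeR adjusted p = 0.00133). The receptor genes Vsir (236 and 206 against 510.4 and 328 CPM, adjusted p = 0.00578) and Cd200r1 (22.6 and 21.0 against 62.0 and 47.4 CPM, adjusted p = 0.00877) were also higher. Vsir lost its call without 5-day replicate 3 (adjusted p = 0.0664) or 10-day replicate 1 (adjusted p = 0.0878), and Cd200r1 without 5-day replicate 2 (adjusted p = 0.081), 5-day replicate 3 (adjusted p = 0.0846) or 10-day replicate 1 (adjusted p = 0.118). Ctla4, which captures B7 molecules, had 650 and 560.5 CPM at 5 days and 1380 and 688 CPM at 10 days and was not called (log2 fold change 0.77 ± 0.36 (SE), edgeR adjusted p = 0.229): 10-day replicate 2 lay close to the 5-day libraries. Leave-one-out fits called 5, 3, 3 and 8 members higher.

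Of 13 regulators of this programme, 6 rose and none fell (median 0.96), with 5, 6, 5 and 5 called higher in the leave-one-out fits. Tox (chr4:6686353-6991557), a nuclear factor of persistently stimulated T cells, had 68.5 and 53.0 CPM at 5 days and 347 and 375 CPM at 10 days, a rise of 5.95-fold (log2 fold change 2.57 ± 0.18 (SE), edgeR adjusted p = 2.34e-07). The nuclear receptor gene Nr4a2, induced through the antigen receptor, had 129.7 and 132 CPM at 5 days and 627 and 617 CPM at 10 days (log2 fold change 2.25 ± 0.16 (SE), edgeR adjusted p = 1.93e-07). Replicates of one age lay close together in both genes. Nfatc1, a calcium-regulated factor, rose 2.19-fold (190.4 and 192 against 404 and 434 CPM), Id2, an inhibitor of E proteins, 2.24-fold (358 and 262 against 824 and 566 CPM), and Maf, a factor of Il10 and Il21, 3.62-fold (70.0 and 68.3 against 329 and 171 CPM), with adjusted p of 0.000339, 0.00226 and 0.000374.

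Of 14 anergy genes, 8 rose and none fell (median 0.89), with 4, 7, 6 and 6 called higher in the leave-one-out fits. Izumo1r had 85.4 and 96.0 CPM at 5 days and 465 and 420.3 CPM at 10 days (log2 fold change 2.29 ± 0.17 (SE), edgeR adjusted p = 2.48e-07), and Nt5e, the enzyme that makes adenosine from AMP, had 45.3 and 59.2 CPM at 5 days and 212 and 287 CPM at 10 days (log2 fold change 2.25 ± 0.27 (SE), edgeR adjusted p = 7.81e-05). Both 10-day libraries were more than 3 times above both 5-day libraries for each gene. Nrp1, the semaphorin receptor neuropilin, rose 2.27-fold (215 and 282 against 597 and 529 CPM, adjusted p = 0.000254). Rnf128, the ubiquitin ligase GRAIL, rose 3.74-fold (12.9 and 14.3 against 62.7 and 39.4 CPM, adjusted p = 0.0031) and was not called without 5-day replicate 2 (adjusted p = 0.0536) or 10-day replicate 1 (adjusted p = 0.0888).

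**Figure D4:**
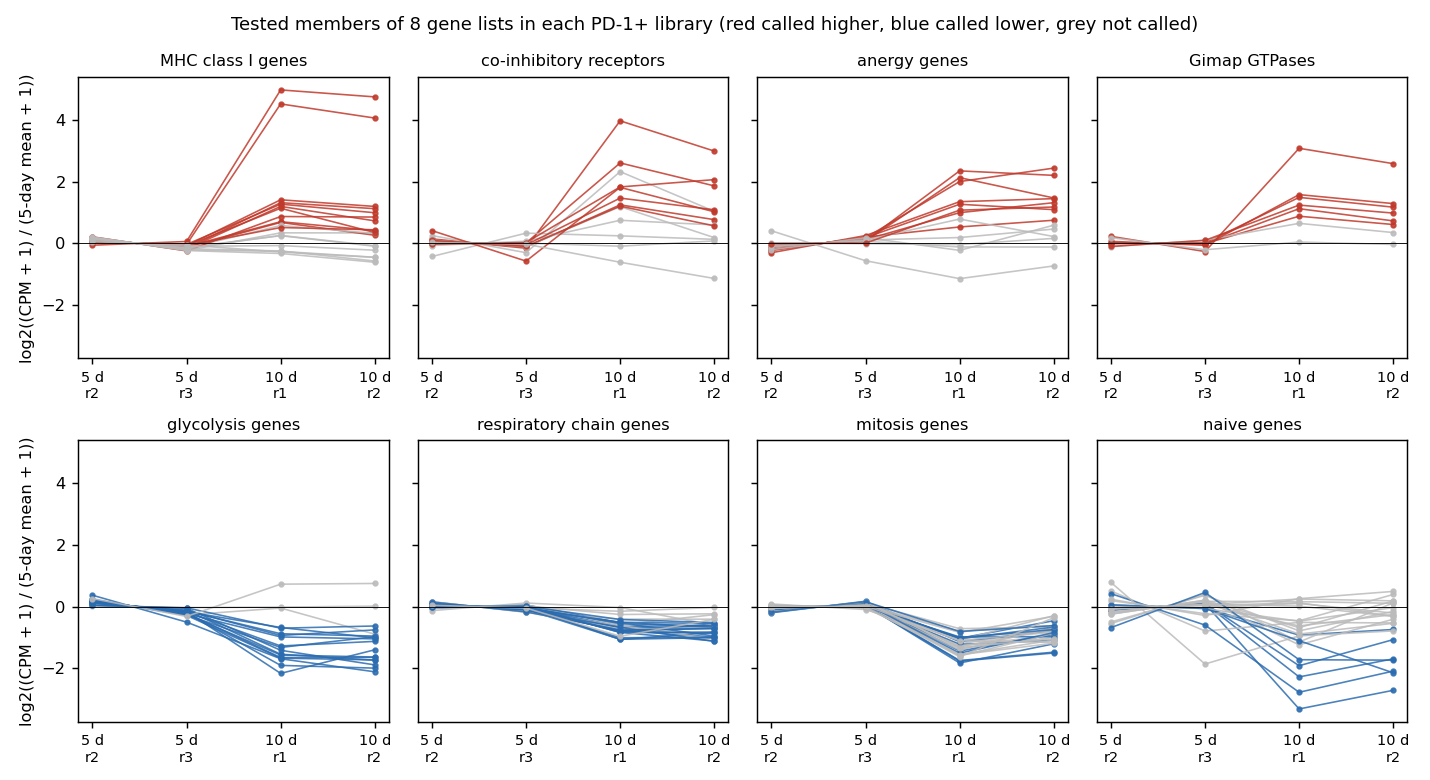
Level of each tested member of 8 gene lists relative to its 5-day mean, as log2 of CPM + 1 over the 5-day mean + 1 (y axis), in each of the 4 libraries (x axis), with lines that only join the values of the same gene. All 7 called co-inhibitory receptors and 8 called anergy genes lie above their 5-day levels in both 10-day libraries, and the 15 called glycolysis genes lie below theirs. No called gene of any list had ages that overlapped.

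Genes of early receptor activation did not move as one group. Among all tested genes 7.39% rose and 6.98% fell. Of 25 tested, 2 rose and 7 fell, with a median of -0.13 that changed sign under some alternatives and 5, 7, 5 and 5 called lower in the leave-one-out fits. Myc, the growth-driving transcription factor, had 158 and 126 CPM at 5 days and 42.7 and 40.1 CPM at 10 days (log2 fold change -1.78 ± 0.22 (SE), edgeR adjusted p = 6.01e-05). Cd69, the early activation antigen that holds T cells in tissue, had 401 and 466 CPM at 5 days and 199 and 167 CPM at 10 days (log2 fold change -1.24 ± 0.17 (SE), edgeR adjusted p = 0.000151), and the costimulatory receptor gene Tnfrsf9 had 198 and 178 CPM at 5 days and 49.1 and 66.1 CPM at 10 days (log2 fold change -1.70 ± 0.27 (SE), edgeR adjusted p = 0.000714). In all 3, both 10-day libraries were below both 5-day libraries by a factor of 2 or more. The GTPase regulator Tagap also fell (113 and 116 against 54.9 and 63.6 CPM). Egr1, an immediate early gene, had 41.2 and 33.4 CPM at 5 days and 133 and 94.5 CPM at 10 days, a rise of 3.05-fold (log2 fold change 1.61 ± 0.23 (SE), edgeR adjusted p = 0.000281).

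Of 19 genes of the antigen receptor and its signalling chain, 8 rose and 2 fell (median 0.34). 4, 5, 7 and 8 were called higher in the leave-one-out fits and 12 with library totals. Neither of the 2 falls was called when any one library was left out. Cd4 had 684 and 754 CPM at 5 days and 1524 and 1336 CPM at 10 days (log2 fold change 0.99 ± 0.15 (SE), edgeR adjusted p = 0.000327), and Cd3e 225 and 240.1 CPM at 5 days and 447 and 376 CPM at 10 days (log2 fold change 0.82 ± 0.15 (SE), edgeR adjusted p = 0.00199). The kinase gene Fyn, which acts at the receptor, rose 3.06-fold (88.0 and 86.9 against 274 and 261 CPM, adjusted p = 1.12e-05). Trac, the constant segment of the alpha chain, and Cd247, the zeta chain, rose 1.67-fold and 1.69-fold, calls lost without 5-day replicate 2 (adjusted p = 0.0827) for Trac and 5-day replicate 2 (adjusted p = 0.0556) for Cd247. These T cell genes moved with many of the other higher genes, and their part in those rises was not tested.

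Cytokine genes differed in direction, beside 7.39% of all tested genes called higher and 6.98% called lower. Of 15 tested cytokines and growth factors 3 rose and 4 fell (median -0.34), and the leave-one-out fits called 3, 1, 3 and 3 higher and 2, 2, 2 and 4 lower. Il2, the growth factor of activated T cells, had 35.0 and 35.3 CPM at 5 days and 4.99 and 5.62 CPM at 10 days (log2 fold change -2.72 ± 0.53 (SE), edgeR adjusted p = 0.00317), and its high-affinity receptor chain gene Il2ra had 122 and 83.1 CPM at 5 days and 25.3 and 23.2 CPM at 10 days (log2 fold change -2.07 ± 0.38 (SE), edgeR adjusted p = 0.00273). Lta, which encodes lymphotoxin alpha, fell 4.20-fold (20.6 and 30.1 against 4.63 and 7.38 CPM), a call lost without 5-day replicate 3 (adjusted p = 0.052). Among the genes that rose, Ltb (260.4 and 239 against 400.3 and 398 CPM) and Il16 (118 and 100.3 against 187 and 179 CPM) were called with adjusted p of 0.00357 and 0.00857. Ltb lost its call without 5-day replicate 3 (adjusted p = 0.059), and Il16 without 5-day replicate 3 (adjusted p = 0.12). Areg, a growth factor for epithelium, had 12.3 and 7.64 CPM at 5 days and 58.4 and 82.2 CPM at 10 days (log2 fold change 2.81 ± 0.39 (SE), edgeR adjusted p = 0.00027). Il21, a cytokine that acts on B cells and on T cells themselves, had 28.3 and 24.8 CPM at 5 days and 129.6 and 58.3 CPM at 10 days (log2 fold change 1.82 ± 0.38 (SE), edgeR adjusted p = 0.00858), a call lost without 5-day replicate 2 (adjusted p = 0.124), 5-day replicate 3 (adjusted p = 0.134) or 10-day replicate 1 (adjusted p = 0.129). Il10, the anti-inflammatory cytokine, had 101 and 76.9 CPM at 5 days and 623 and 192 CPM at 10 days. Its 10-day libraries were both higher but unlike each other, and edgeR gave an adjusted p of 0.0996, while DESeq2 gave 2.03e-06. Ifng, the hallmark Th1 cytokine, had 500.3 and 633 CPM at 5 days and 524 and 302 CPM at 10 days, with overlapping ages (log2 fold change -0.46 ± 0.49 (SE), edgeR adjusted p = 0.61).

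Helper cell lists held both directions, beside 7.39% of all tested genes called higher and 6.98% called lower. Of 21 Th1 genes 4 rose and 4 fell (median 0.14), and the leave-one-out fits called 0, 0, 0 and 3 higher and 2, 3, 4 and 2 lower. The interleukin-18 receptor gene Il18r1 fell 2.58-fold (138 and 120.3 against 54.5 and 45.7 CPM, adjusted p = 0.000868), and Ifngr2, a subunit of the receptor for interferon-gamma, 6.36-fold (6.69 and 9.55 against 0.712 and 1.76 CPM, adjusted p = 0.00366), although limma-voom did not call Ifngr2. Tbx21, the Th1 master regulator, had 197 and 180 CPM at 5 days and 303 and 329 CPM at 10 days and was not called (log2 fold change 0.75 ± 0.24 (SE), edgeR adjusted p = 0.056), but 7 of the 14 alternatives called it, DESeq2 among them (adjusted p = 0.0412), and its adjusted p ranged from 0.00103 to 0.274 over them. Of 11 Th2 genes 2 rose and 2 fell, with 1, 1, 2 and 1 called higher and 1, 2, 2 and 1 lower in the leave-one-out fits. Areg, given above, and Nfil3 (67.4 and 46.8 against 91.9 and 135 CPM, adjusted p = 0.0418) were the rises, and Nfil3 was not called without 5-day replicate 2 (adjusted p = 0.0965), 5-day replicate 3 (adjusted p = 0.291) or 10-day replicate 2 (adjusted p = 0.28). The chemokine receptor gene Ccr4 fell 5.42-fold (58.2 and 68.8 against 10.3 and 13 CPM, adjusted p = 0.000281), while Gata3, their master regulator, had 351 and 280.2 CPM at 5 days and 289 and 260.4 CPM at 10 days and was not called (adjusted p = 0.508).

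Of 11 follicular helper genes 6 rose and none fell (median 1.14, 2, 3, 4 and 5 called higher in the leave-one-out fits). The list's own master regulator Bcl6 was not among them (5.66 and 12.4 against 15.3 and 19.7 CPM, adjusted p = 0.235). Angptl2, a secreted factor, rose 5.38-fold (75.7 and 116 against 632 and 398 CPM, adjusted p = 2.66e-05), and Ptpn11, the phosphatase SHP-2, 2.37-fold (104 and 100.3 against 225 and 260 CPM). Il21, given above, is in this list too. Sostdc1, a secreted antagonist of BMP signals, had 0 and 0.477 CPM at 5 days and 14.6 and 4.22 CPM at 10 days and a pooled ratio of 43.1 (interval 7.41 to 1730, adjusted p = 0.0188), a call lost without 5-day replicate 2 (adjusted p = 0.179) or 5-day replicate 3 (adjusted p = 0.0728). Of 15 cytotoxic granule genes 4 rose and 1 fell (median 0.81, 3, 3, 3 and 6 called higher in the leave-one-out fits). Gzmk, the protease granzyme K, had 7.21 and 3.82 CPM at 5 days and 41.0 and 46.0 CPM at 10 days (log2 fold change 2.98 ± 0.56 (SE), edgeR adjusted p = 0.0024), and Cst7, an inhibitor of granule cathepsins, had 70.5 and 58.2 CPM at 5 days and 316 and 216 CPM at 10 days (log2 fold change 2.05 ± 0.22 (SE), edgeR adjusted p = 1.67e-05). The libraries of the 2 ages stood apart in both, as in every called gene. For both lists, the shares over all tested genes were 7.39% higher and 6.98% lower. Prf1, the pore protein perforin, had 2.06 and 13.4 CPM at 5 days and 50.9 and 31.6 CPM at 10 days (adjusted p = 0.0243), a call lost without 5-day replicate 2 (adjusted p = 0.114) or 10-day replicate 1 (adjusted p = 0.128).

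Some genes of the naive state and of recirculation fell at 10 days. Of 23 tested none rose, 7 fell and 16 were not called (median -0.55), with 7, 7, 5 and 10 called lower in the leave-one-out fits. Satb1 (chr17:51736187-51833290), a chromatin organiser of thymocytes and naive T cells, had 219 and 252 CPM at 5 days and 22.8 and 35.1 CPM at 10 days, a fall of 8.10-fold (log2 fold change -3.02 ± 0.18 (SE), edgeR adjusted p = 5.23e-08). Ccr7, the chemokine receptor that leads T cells into lymph nodes, had 412 and 478 CPM at 5 days and 118 and 212 CPM at 10 days (log2 fold change -1.43 ± 0.23 (SE), edgeR adjusted p = 0.00325), and 10-day replicate 1 was the lowest library. S1pr1, which guides exit from tissue into lymph and blood, fell 1.78-fold (134 and 126 against 68.0 and 77.3 CPM), and the kinase gene Txk 2.98-fold (63.3 and 58.2 against 27.8 and 13 CPM).

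Of 24 tissue homing and residency genes 6 rose and 2 fell (median 0.39, 5, 4, 5 and 7 called higher in the leave-one-out fits). The integrin alpha 4 gene Itga4 had 305 and 415 CPM at 5 days and 1062 and 999 CPM at 10 days (log2 fold change 1.52 ± 0.16 (SE), edgeR adjusted p = 1.3e-05), and the collagen-binding integrin gene Itga1 had 9.78 and 11.9 CPM at 5 days and 88.3 and 62.2 CPM at 10 days (log2 fold change 2.78 ± 0.37 (SE), edgeR adjusted p = 0.000124). Both integrins were at least 2-fold higher in each 10-day library than in either 5-day library. The shares over all tested genes were 7.39% higher and 6.98% lower. Rgs16 and Rgs2, which dampen G protein signals from chemokine receptors, rose 5.84-fold and 3.33-fold, to 424 and 305 CPM and 325 and 267 CPM. Gpr183, the receptor for oxysterols, fell 4.63-fold (66.4 and 92.6 against 19.2 and 15.1 CPM, adjusted p = 1.72e-05). Among 18 S100, galectin and annexin genes and their partners, 1 rose and 7 fell (median -0.33, 6, 7, 5 and 5 called lower in the leave-one-out fits). Vim, the intermediate filament vimentin, had 4334 and 3964 CPM at 5 days and 1420 and 1480 CPM at 10 days (log2 fold change -1.52 ± 0.13 (SE), edgeR adjusted p = 1.52e-06), and Anxa2 2260 and 2213 CPM at 5 days and 797 and 712 CPM at 10 days (log2 fold change -1.57 ± 0.21 (SE), edgeR adjusted p = 0.000608). S100a10, the partner of Anxa2, fell 1.88-fold, whereas S100a4 rose 2.52-fold (84.4 and 77.8 against 236 and 174 CPM).

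Gimap genes, GTPases of lymphocyte survival, were uniformly on one side: all 8 tested had a positive log2 fold change and 6 rose (median 1.03), with 6, 6, 6 and 7 called higher in the leave-one-out fits. Gimap7 had 56.1 and 39.6 CPM at 5 days and 411 and 291 CPM at 10 days (log2 fold change 2.88 ± 0.31 (SE), edgeR adjusted p = 0.000305). Gimap6 rose 2.71-fold (415 and 379.5 against 1187 and 971 CPM), Gimap3 2.53-fold, Gimap8 2.18-fold and Gimap4 1.92-fold, with adjusted p of 5.03e-06, 4.45e-05, 0.000445 and 0.000772. Of 13 members of the Bcl2 family of apoptosis regulators, none rose and 1 fell (median -0.035), beside 7.39% and 6.98% of all tested genes. The lower gene was Bcl2l1, which encodes Bcl-xL (220.3 and 196 against 133 and 108 CPM, edgeR adjusted p = 0.016). Its call was lost without 5-day replicate 2 or 10-day replicate 2.

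Most glycolysis genes fell: of 18 tested, 15 fell and none rose, with a median of -1.18 against 0.05 over all genes, and 11, 14, 13 and 15 were called lower in the leave-one-out fits. The upstream stretch of Ldha, lactate dehydrogenase A, is printed because Ldha fell with the list and carries the E-box letters CACGTG, which Myc and HIF factors are known to read in some genes. It is chr7:46845554-46845803 (+), RefSeq GRCm38.p6, the 250 bases before the start with most matches, on the gene's strand, with CACGTG in capitals. This stretch lies inside the GENCODE span of the gene.
Ldha: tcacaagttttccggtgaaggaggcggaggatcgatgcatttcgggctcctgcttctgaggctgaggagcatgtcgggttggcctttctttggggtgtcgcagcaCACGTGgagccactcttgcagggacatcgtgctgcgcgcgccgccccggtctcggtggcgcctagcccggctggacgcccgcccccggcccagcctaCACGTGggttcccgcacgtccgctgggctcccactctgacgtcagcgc
The letters began 145 and 48 bases before the start. CACGTG was present in 1 of 25 promoters of the list (4.0%) and in 10.3% of the promoters of all tested genes, the 1 being that of Ldha. Ldha had 5911 and 5079 CPM at 5 days and 1889 and 1650 CPM at 10 days (log2 fold change -1.63 ± 0.13 (SE), edgeR adjusted p = 6.34e-07). Tpi1 (chr6:124810586-124814296), triosephosphate isomerase, had 1556 and 1193 CPM at 5 days and 367 and 345 CPM at 10 days, a fall of 3.86-fold (log2 fold change -1.95 ± 0.16 (SE), edgeR adjusted p = 1.4e-06). No 10-day library reached the lower 5-day library in either gene, as in every gene called lower. Aldoa, the aldolase, fell 3.24-fold (4103 and 2865 against 1097 and 1054 CPM), Pgk1, a kinase that makes ATP, 3.15-fold (364 and 276 against 102 and 102 CPM), and Eno1, the enolase, 3.03-fold (1318 and 959.6 against 384 and 367 CPM).

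Many respiratory chain genes of the nucleus fell too. All 26 tested had a negative log2 fold change and 18 fell (median -0.70), with 5, 11, 7 and 11 called lower in the leave-one-out fits and 8 with library totals. The ATP synthase genes Atp5b and Atp5a1 had 2817 and 2591 CPM at 5 days and 1345 and 1361 CPM at 10 days (Atp5b) and 2204 and 2254 CPM at 5 days and 1248 and 1261 CPM at 10 days (Atp5a1) and fell 2.00-fold and 1.78-fold (edgeR adjusted p = 5.02e-05 and 0.000281). Cox5a, of cytochrome c oxidase, fell 2.05-fold (244 and 217 against 110.4 and 115 CPM), Cyc1, a cytochrome, 1.93-fold, and Ndufa4 1.96-fold. Of 8 genes encoded in the mitochondrion itself, all were negative and 4 fell (median -0.62, 2, 2, 3 and 2 in the leave-one-out fits). The cytochrome oxidase gene mt-Co1 had 9283 and 9401 CPM at 5 days and 5971 and 6088 CPM at 10 days (log2 fold change -0.63 ± 0.12 (SE), edgeR adjusted p = 0.00304), and mt-Nd5, of complex I, 1481 and 1477 CPM at 5 days and 945 and 888 CPM at 10 days (adjusted p = 0.00703). Mitochondrial genes took 1.69 and 1.75% of all counts at 5 days and 1.23 and 1.2% at 10 days. Actb, the actin gene, took 5.33 and 4.98% at 5 days and 2.9 and 3.04% at 10 days, and its part in these falls was not tested.

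Many genes of a list of Myc and ribosome biogenesis fell, Myc itself among them. Odc1, Cad, Srm and Tfrc, which have other roles, are also in it. All 22 tested genes of this list were negative and 14 fell (median -0.90, 7, 13, 11 and 10 in the leave-one-out fits). Npm1, which encodes nucleophosmin, had 1116 and 951 CPM at 5 days and 473 and 569.6 CPM at 10 days (log2 fold change -0.99 ± 0.14 (SE), edgeR adjusted p = 0.000254), and Nop58, which guides the methylation of ribosomal RNA, had 411 and 362 CPM at 5 days and 184 and 159.5 CPM at 10 days (log2 fold change -1.17 ± 0.16 (SE), edgeR adjusted p = 0.000133). Mybbp1a (228 and 197 against 85.5 and 99.5 CPM) and Ncl, nucleolin (1520 and 1307 against 765 and 813 CPM), fell 2.29-fold and 1.79-fold. Of 23 endoplasmic reticulum folding genes 13 fell and 1 rose (median -0.72, 5, 12, 10 and 6 called lower in the leave-one-out fits). The disulfide isomerase genes Pdia6 and Pdia3 fell 2.10-fold and 1.76-fold (386 and 302 against 169.9 and 158 CPM for Pdia6), and the lectin chaperones Canx and Calr 1.83-fold and 1.84-fold (735 and 711 against 402 and 387 CPM for Canx). Dnajb9, a cochaperone of the unfolded protein response, rose 1.88-fold (78.8 and 83.5 against 169.9 and 135 CPM, adjusted p = 0.00255).

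Of 21 genes of ATF4 and amino acid supply 8 fell and 1 rose (median -0.64, 4, 6, 5 and 5 called lower in the leave-one-out fits). Phgdh and Psat1, enzymes of serine synthesis, had 226 and 194 CPM at 5 days and 88.0 and 82.6 CPM at 10 days (Phgdh) and 369.5 and 397 CPM at 5 days and 159.6 and 189 CPM at 10 days (Psat1), with log2 fold changes of -1.30 ± 0.19 and -1.14 ± 0.17 (SE) and edgeR adjusted p of 0.000323 and 0.000296. Gars, which charges the glycine transfer RNA, fell 1.81-fold. Of 26 genes of cholesterol and fatty acid synthesis 3 fell and none rose, against 6.98% of all tested genes that fell, and 1, 2, 3 and 1 were called lower in the leave-one-out fits. Lss, lanosterol synthase, had 66.9 and 36.3 CPM at 5 days and 12.1 and 14.8 CPM at 10 days (adjusted p = 0.00181), a call lost without 5-day replicate 2 (adjusted p = 0.0638).

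Some cell cycle genes fell at 10 days, in numbers that depended on single libraries. The upstream stretches of a mitosis gene and a replication gene are printed to show motifs that are common in these lists: CCAAT (or ATTGG) in Hmmr, chr11:40733438-40733687 (-), and the E2F-type letters TTTGGCGC or TTTCGCGC, on either strand, in Mcm5, chr8:75109259-75109508 (+). Both are RefSeq GRCm38.p6, the 250 bases before the start with most matches, on the gene's strand, with matches in capitals.
Hmmr: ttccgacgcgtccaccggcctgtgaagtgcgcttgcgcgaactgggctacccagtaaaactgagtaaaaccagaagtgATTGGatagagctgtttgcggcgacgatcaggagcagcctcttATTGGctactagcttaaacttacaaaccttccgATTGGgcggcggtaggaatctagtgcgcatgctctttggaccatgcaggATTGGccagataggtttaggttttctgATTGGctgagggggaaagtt
Mcm5: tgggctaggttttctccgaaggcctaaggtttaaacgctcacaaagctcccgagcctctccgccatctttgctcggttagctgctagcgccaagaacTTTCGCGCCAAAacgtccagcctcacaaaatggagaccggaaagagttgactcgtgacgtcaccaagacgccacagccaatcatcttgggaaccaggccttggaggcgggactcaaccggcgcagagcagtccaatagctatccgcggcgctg
Hmmr held 5 matches, beginning 172, 129, 96, 47 and 20 bases before the start, and Mcm5 2 that overlap, at 153 and 149. CCAAT was present in 22 of 25 promoters of the mitosis list (88.0%) against 38.2% of all. The E2F-type letters were present in 8 of 29 promoters of the replication list (27.6%) against 1.6% of all. Among the promoters of all genes called lower, CCAAT was present in 39.6% and the E2F-type letters in 2.2%.

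Of 29 tested mitosis genes none rose and 12 fell, and all 29 were negative (median -0.98). 4, 2, 1 and 10 were called lower in the leave-one-out fits. Aurkb, a kinase of chromosome segregation, had 223 and 222 CPM at 5 days and 112 and 113 CPM at 10 days (log2 fold change -0.98 ± 0.21 (SE), edgeR adjusted p = 0.00549). Birc5, which encodes survivin, had 294 and 315 CPM at 5 days and 90.1 and 109 CPM at 10 days (log2 fold change -1.61 ± 0.29 (SE), edgeR adjusted p = 0.00617), a call lost without 10-day replicate 1 (adjusted p = 0.0742). Hmmr, a protein of the spindle, fell 2.22-fold (87.0 and 101 against 32.4 and 52.0 CPM, adjusted p = 0.0105), a call lost without 5-day replicate 3 (adjusted p = 0.0754) or 10-day replicate 1 (adjusted p = 0.121). Mki67, the proliferation marker, had 539 and 558 CPM at 5 days and 238 and 325 CPM at 10 days and was not called (log2 fold change -0.96 ± 0.32 (SE), edgeR adjusted p = 0.0995). However, 6 of the 14 alternatives called Mki67 lower, DESeq2 among them, and its log2 fold change ranged from -1.21 to -0.76 over the 14. Of 30 replication genes none rose and 13 fell (median -0.48), with 3, 7, 9 and 3 called lower in the leave-one-out fits and 6 with library totals. Rrm2 and Rrm1, the subunits of the enzyme that makes deoxynucleotides, fell 2.15-fold (1261 and 1230 against 562 and 598 CPM) and 1.88-fold (808 and 773 against 413 and 427 CPM), and Rrm1 was not called without 10-day replicate 1 (adjusted p = 0.0547). Uhrf1, which maintains DNA methylation, fell 1.81-fold (292 and 272 against 160.3 and 150.4 CPM, adjusted p = 0.00281). Mcm5, a subunit of the replicative helicase, fell 1.55-fold (808 and 674 against 528 and 426 CPM, adjusted p = 0.0126), a call lost without 5-day replicate 2 (adjusted p = 0.155) or 10-day replicate 2 (adjusted p = 0.113) and with library totals (0.0596).

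Of 15 genes that brake the cell cycle 5 rose and 1 fell (median 0.28, 3, 5, 4 and 3 called higher in the leave-one-out fits). Tob2, an antiproliferative adaptor, had 96.2 and 105 CPM at 5 days and 242 and 235 CPM at 10 days (log2 fold change 1.25 ± 0.16 (SE), edgeR adjusted p = 6.32e-05), and Rbl2, the pocket protein p130, had 70.0 and 82.6 CPM at 5 days and 168 and 182 CPM at 10 days (log2 fold change 1.19 ± 0.17 (SE), edgeR adjusted p = 0.000306). Gadd45b, a stress-induced gene, rose 2.11-fold (326 and 315 against 712 and 639 CPM). Cdkn2d, which encodes the inhibitor p19, fell 1.97-fold (149.8 and 128 against 63.8 and 77.7 CPM). The ages did not overlap in any of the 4, as in every called gene. Among all tested genes 7.39% rose and 6.98% fell.

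Stress and dissociation genes, which the handling of tissue can induce, also moved. Of 20 tested 9 rose and 3 fell (median 0.62), with 5, 4, 7 and 5 called higher in the leave-one-out fits. Dusp1, a MAP kinase phosphatase, had 383 and 318 CPM at 5 days and 906 and 926 CPM at 10 days (log2 fold change 1.39 ± 0.15 (SE), edgeR adjusted p = 1.97e-05), and Fosl2, a subunit of AP-1, had 132 and 125 CPM at 5 days and 355 and 372 CPM at 10 days, a rise of 2.82-fold (edgeR adjusted p = 1.97e-05). Ppp1r15a, which restarts translation after stress, rose 2.27-fold, and Hsp90ab1, a chaperone, fell 1.58-fold (4186 and 3815 against 2577 and 2501 CPM). Whether handling of the tissue differed between ages is not given, and the part of these genes in the rise of Egr1, Nr4a2 and Gadd45b was not tested. Of 8 tested fetal and neonatal genes none rose and 2 fell, beside 7.39% and 6.98% of all tested genes. Log2 fold changes were positive in 4 and negative in 4, with a median of 0.13 that changed sign under some alternatives. The RNA-binding protein gene Igf2bp3 fell 2.17-fold (90.1 and 98.8 against 47.0 and 40.1 CPM, edgeR adjusted p = 0.0013). Hmga1 fell 2.84-fold (24.7 and 13.8 against 8.19 and 5.27 CPM, edgeR adjusted p = 0.0373). Lin28b, the fetal regulator of let-7, had 6.69 and 1.43 CPM at 5 days and 0.356 and 0 CPM at 10 days, a pooled ratio of 0.0508 (interval 0.00121 to 0.327), and was not called (adjusted p = 0.0603).

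**Figure D5:**
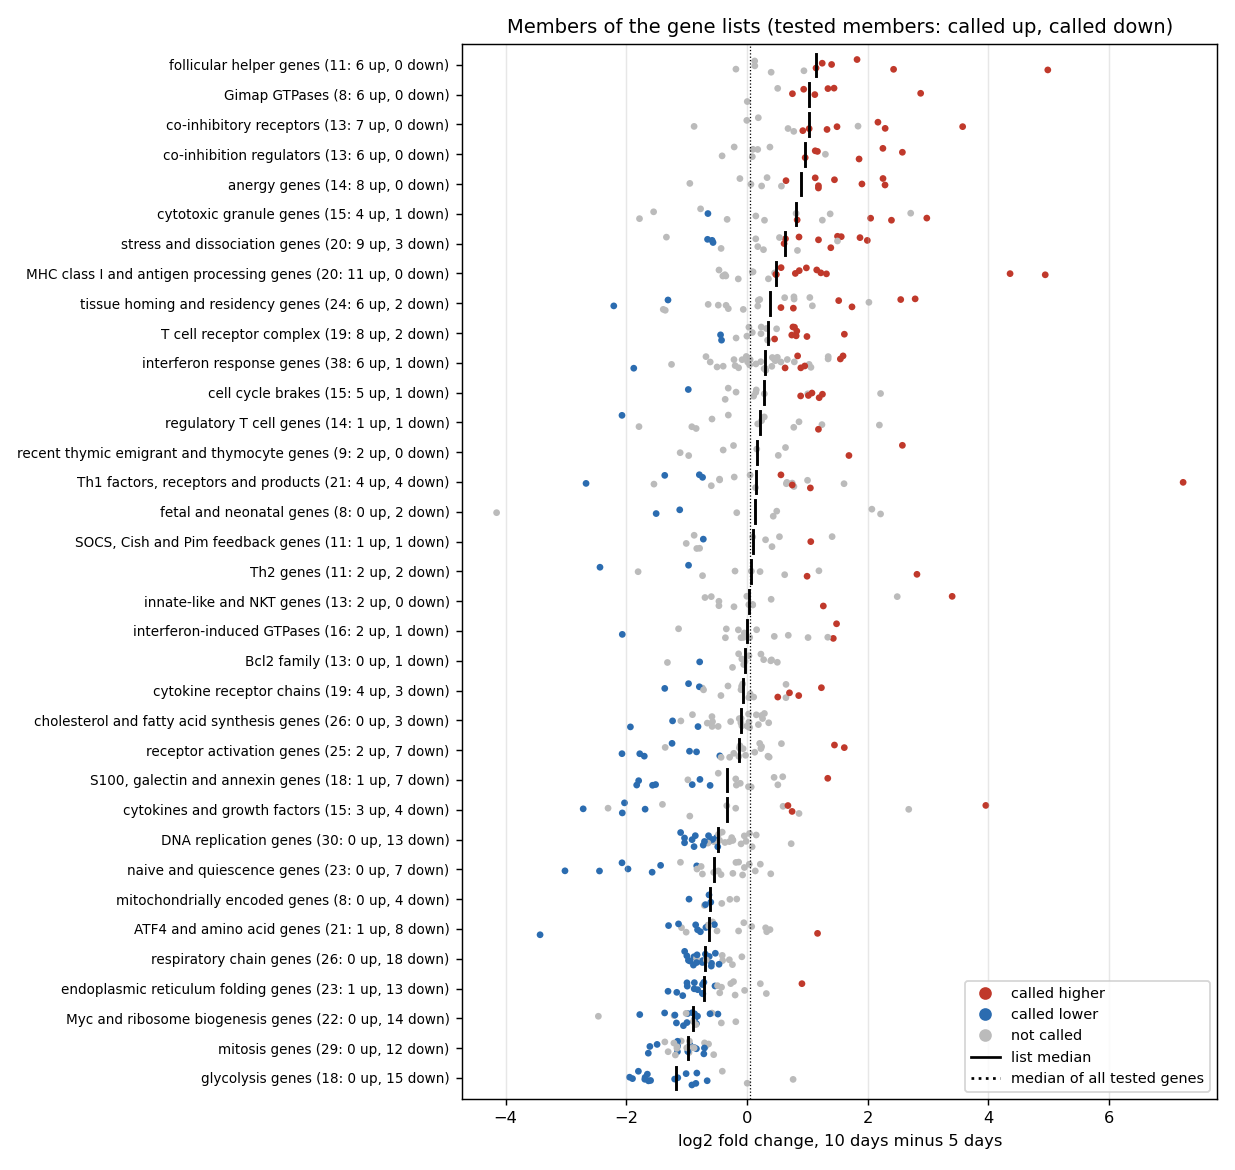
Log2 fold change of 10 against 5 days (x axis) for the tested members of the T cell lists with at least 5 of them (y axis), called members coloured, with a bar at each list's median and a dotted line at the median of all tested genes. The Gimap list lies wholly above 0. The mitosis list, the respiratory chain list, the list of mitochondrially encoded genes and the list of Myc and ribosome biogenesis lie wholly below it.

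Markers of other liver and blood cells were low, and few were called. Summed over their lists, hepatocyte markers had 107 and 49.7 CPM at 5 days and 101 and 106 CPM at 10 days, with Alb, the albumin gene, at 30.9 and 11.5 against 42.4 and 36.9 CPM and not called (adjusted p = 0.368). Dendritic cell markers had 64.8 and 61.6 CPM at 5 days and 131 and 99.1 CPM at 10 days, with none of 7 tested called. CD8 markers had 6.18 and 6.68 CPM at 5 days and 27.4 and 21.1 CPM at 10 days. Cd8b1 was called (5.15 and 3.82 against 13.2 and 15.8 CPM, adjusted p = 0.0131), a call lost without 5-day replicate 2 (adjusted p = 0.0702), 5-day replicate 3 (adjusted p = 0.12) or 10-day replicate 2 (adjusted p = 0.0603). B cell markers had 313 and 362 CPM at 5 days and 299 and 307 CPM at 10 days, most of it Ighm. Neutrophil markers had 2.06 and 4.77 CPM at 5 days and 5.70 and 2.46 CPM at 10 days, and 5 of them were at 0 in all 4, as were 6 mast cell and 2 erythroid markers. Tfrc, an erythroid marker that dividing T cells also carry, fell (208 and 196 against 122 and 141 CPM, adjusted p = 0.0195), a call lost without 5-day replicate 2 (adjusted p = 0.143), 5-day replicate 3 (adjusted p = 0.0653) or 10-day replicate 1 (adjusted p = 0.151). The part of such cells in the results was not tested.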

How the data were processed

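RNA of the sorted cells was primed with oligo(dT), amplified as cDNA, tagmented with Nextera XT and sequenced on a NextSeq500, per the labels' protocols. The authors deposited 1 table of raw counts per gene symbol. STAR 2.5.4, featureCounts and build mm10 are named per the submitters' processing notes. Neither annotation, strand setting nor handling of multimapping reads is given in the sources used here. Overlapping genes and paralogs can therefore share counts.

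Counts were used as deposited, and 0 columns were left unmatched to a sample. Genes kept by filterByExpr over the 4 groups of 2 libraries were fitted with robust edgeR quasi-likelihood models (edgeR 4.0.16, R 4.3.3, TMM scaling, 4 residual degrees of freedom), contrasting 10-day with 5-day PD-1+ libraries. P-values were adjusted over all 11490 genes by Benjamini-Hochberg at 0.05. Standard errors are the log2 fold change over the square root of F. For genes with 3 counts or fewer at one age, pooled ratios carry exact 95% intervals that cover counting error only. Alternatives were DESeq2 1.42.0, limma-voom (limma 3.58.1), other scalings, filters and left-out libraries. The fits were tested on simulated data.

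Members and the 48 gene lists were chosen with earlier results of these data known. Named genes are the 15 largest rises and 15 largest falls among called genes with a mean of at least 8 CPM and no overlap between ages, the called members of each list (the 5 of smallest p where there were more), and 20 genes set by name. Receptor segments, unnamed models and sex-linked Xist and Y genes were left out of the first part. Gene coordinates are GENCODE M21 on GRCm38. RefSeq promoters matched 8355 tested genes. A few named results are not reported here.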

Additional observations from a re-analysis of the deposited data

How the results depend on the processing

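Of 171 named genes that were called, 112 kept their call under all 14 alternatives, 59 lost it under at least 1, and none changed direction. Of 10 that were not called, 4 were called under some alternative. Called genes had no overlap between ages, so a change of direction was unlikely in advance. With library totals in place of TMM, 1393 genes were higher and 449 lower. Leaving out 1 library gave 271 to 587 higher and 279 to 539 lower genes. Leaving out both 5-day libraries numbered 3 gave 526 higher and 588 lower. DESeq2 called 613 higher and 731 lower, with 1560 genes given no adjusted p. The median log2 fold change kept its sign in every setting for 25 of the 36 T cell lists and changed sign in 11, among them the activation, Th1 and Th2 lists.

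No paired analysis of the ages was possible, because livers taken at 5 and at 10 days come from different mice. A limma-voom fit over all 8 libraries took the PD-1+ and PD-1- libraries of the same age and replicate number as a random block. It called 786 higher and 925 lower genes (block correlation 0.081), against 780 and 918 without the block.

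With 2 libraries of 1000 cells at each age, age cannot be told apart from any difference in handling between the ages.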

Other observations

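Several gene sets grouped by symbol after their values were seen had called members in one direction. Of 91 tested cytosolic ribosomal protein genes 50 fell and none rose, with a median log2 fold change of -0.61, and the leave-one-out fits, in the order used above, called 26, 35, 26 and 42 of them lower (32 with library totals). These genes took 3.5 and 3.41% of the counts at 5 days and 2.31 and 2.7% at 10 days. Of 38 proteasome genes 24 fell (median -0.63), with 1, 15, 12 and 4 called lower in the leave-one-out fits and 8 with library totals. The 8 chaperonin genes of the Cct family fell (median -0.75), with 5, 6, 6 and 6 called in the leave-one-out fits. Of 76 mitochondrial ribosomal protein genes 13 fell (median -0.54), with 1, 8, 7 and 4 in the leave-one-out fits. No gene of these 3 sets rose. Of 14 actin and thymosin genes 7 fell and none rose (median -0.82), and 7 were called lower in each leave-one-out fit.

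The called genes differed in length. Higher genes had a median genomic span of 29.2 kb and lower genes 13.5 kb, against 20.9 kb over all tested genes, and median exonic lengths of 5.17, 3.26 and 4.31 kb. Median levels were 51.9 CPM for higher and 125 CPM for lower genes. Of 339 X-linked genes 20 rose and 20 fell, beside 7.39% and 6.98% of all tested genes. Leave-one-out fits called 4, 7, 7 and 15 higher and 9, 11, 10 and 14 lower, and library totals 41 and 11.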
